A study of Mus musculus with 6 samples.

Results

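The genes described here make prostaglandins and leukotrienes and receive the prostaglandin E2 signal. The set holds 10 genes of the 14912 in the deposited table: the prostaglandin synthesis genes Ptgs1, Ptgs2, Ptges, Ptges2 and Ptges3, the prostaglandin E2 receptor genes Ptger2 and Ptger4, and the leukotriene synthesis genes Alox5, Alox5ap and Lta4h. All 10 were present. They were chosen by symbol with the midkine comparison already known, so their values are given as a description and no p-value is attached to them. Bone marrow of wild-type C57BL/6J mice was cultured with FLT3LG, the cytokine that drives dendritic cells to develop, at 50 ng/ml, and 3 of the samples had human recombinant MIDKINE, a secreted cytokine that binds heparin, at 10 ng/ml for the last 2 days. The 3 control samples had FLT3LG alone. FLT3LG was given afresh on day 7 in both groups. Whether the 3 samples of a group came from separate mice or cultures is not stated, so the spread between them, and every p-value that rests on it, may be technical.

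Prostaglandins and leukotrienes are short-lived lipid signals made from arachidonic acid, a fatty acid that phospholipases release from membranes. The cyclooxygenases Ptgs1 and Ptgs2 turn it into prostaglandin H2, from which terminal synthases make prostaglandin E2 and other prostanoids. The lipoxygenase Alox5, with its partner Alox5ap, turns it into leukotriene A4, which Lta4h hydrolyses to the chemoattractant leukotriene B4. In dendritic cells prostaglandin E2 is known to act through Ptger2 and Ptger4, both of which raise cyclic AMP, and to affect migration, maturation and cytokine output.

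The sequenced libraries held 5685055 to 6453768 reads with midkine and 5089338 to 5532055 reads in control. Of 11844 genes with a mean of at least 10 normalised read counts (reads divided by a size factor per library), 20.9% were called higher and 21.8% lower with midkine in limma at a Benjamini-Hochberg adjusted p under 0.05, and below "called", "rose" and "fell" refer to this test. Defining dendritic cell genes were present: all 6 listed (Flt3, Itgax, Zbtb46, Cd74, H2-Aa and H2-Ab1) passed the minimum, with 2 higher and 1 lower. Mitochondrial ribosomal RNA took 18.09% to 20.92% of the reads with midkine and 9.33% to 9.86% in control. The cultures were mixed and were sequenced in bulk, so fewer cells of a type and less RNA per cell cannot be told apart.

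Ptgs2, the cyclooxygenase induced by inflammatory stimuli, Ptges, the inducible microsomal synthase that makes prostaglandin E2, and Ptger2, a receptor for it, were all higher, by 3.16, 1.88 and 1.34 on the log2(value + 1) scale. Ptgs1, the constitutive cyclooxygenase, was lower by 0.97. Lta4h was higher by 0.32, and Ptges2, Ptges3 and Alox5ap overlapped between the groups. Ptger4 and Alox5 lay lower in every midkine library. Ptger4 was not called, and Alox5, with 8 midkine and 30 control reads, was not tested.

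Of the 10 genes 9 passed the minimum mean, and 4 of these were called higher and 1 lower, against 20.9% and 21.8% of all genes tested. The choice of the genes used this comparison, so nothing is read from these counts or from the median and counts that follow. The median log2 fold change of the 9 was 0.32, beside -0.0086 over all genes tested. The midkine values lay wholly above the control values for 4 of the 10 genes and wholly below for 3, where 25.1% and 26.2% of the tested genes did so. Ptgs2 and Ptges passed the minimum only through their midkine libraries, so a difference was built into their passing and into the median of the 9.

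**Figure D1:**
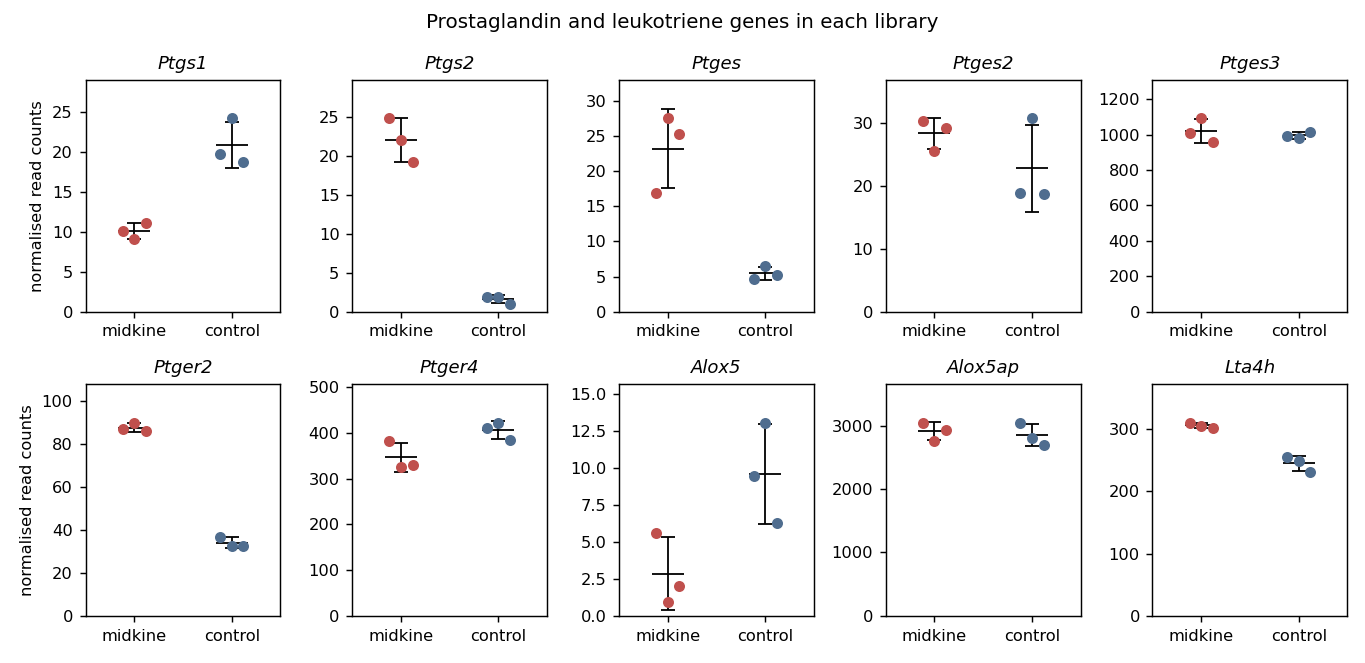
Each panel plots 1 of the 10 genes, with normalised read counts on a linear axis from 0, 3 midkine libraries in red on the left and 3 control libraries in blue on the right, and black bars for the mean and SD. Ptgs2, Ptges, Ptger2 and Lta4h lie higher in all midkine libraries, Ptgs1, Ptger4 and Alox5 lie lower, and Ptges2, Ptges3 and Alox5ap overlap.

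Ptgs2 had 24.79, 21.99 and 19.17 normalised read counts in the 3 midkine libraries, against 1.89, 1.87 and 1.04 in the 3 control libraries. Every midkine library was far above every control library. The means were 22.0 ± 2.81 with midkine and 1.60 ± 0.482 in control (SD, n = 3 each), and the log2 fold change was 3.16 (SE 0.45). The control level rests on 5 reads in all, 2, 2 and 1 by library, beside 65 with midkine. The ratio of midkine to control from these reads was 13.5, with an exact 95% interval of 5.51 to 43.1, which covers counting error only. Adding 5 in place of 1 before taking logs gave 2.03, while DESeq2, which adds nothing, gave 3.77. Without midkine replicate 1, or without midkine replicate 2, the mean was under 10 and the gene could not be tested. The gene lies on chromosome 1 from 150100031 to 150108227 of GRCm38, with no exon of another gene over its own.

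Ptges had 16.90, 27.49 and 25.22 normalised read counts with midkine and 4.72, 6.53 and 5.21 in control. Midkine replicate 1 was the lowest of its group and still more than the highest control library. The means were 23.2 ± 5.58 with midkine and 5.49 ± 0.935 in control (SD, n = 3 each), from 70 midkine and 17 control reads, and the log2 fold change was 1.88 (SE 0.36). The ratio of reads was 4.28, with an exact 95% interval of 2.49 to 7.77. Ptges lies on chromosome 2 from 30889471 to 30929863, on the minus strand.

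Ptgs1 showed the opposite order. It had 10.14, 9.16 and 11.10 normalised read counts with midkine and 19.83, 24.26 and 18.76 in control, so the groups did not overlap. The log2 fold change was -0.97 (SE 0.31), from 30 midkine and 65 control reads, and the read ratio was 0.480, with an exact 95% interval of 0.301 to 0.751. The call was lost without control replicate 2, where the fold change was -0.87, and in DESeq2, where it was -1.05. In each midkine library Ptgs2 was above, and Ptgs1 below, all 3 control libraries.

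The promoters of both cyclooxygenase genes and of the inducible synthase are shown because these genes differed most in direction or size among the prostaglandin synthases. Each is the RefSeq window on GRCm38.p6 from 250 bases before to 50 after the annotated start, 5′ to 3′ on the gene's own strand. Capitals mark matches, on either strand, to the motifs named below.

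Ptgs2: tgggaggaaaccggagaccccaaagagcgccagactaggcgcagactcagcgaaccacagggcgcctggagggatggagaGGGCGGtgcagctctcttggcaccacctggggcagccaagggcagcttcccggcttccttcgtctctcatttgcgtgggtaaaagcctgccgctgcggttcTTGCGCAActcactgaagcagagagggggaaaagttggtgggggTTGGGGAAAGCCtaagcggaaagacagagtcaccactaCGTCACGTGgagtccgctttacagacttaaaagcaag
Ptges: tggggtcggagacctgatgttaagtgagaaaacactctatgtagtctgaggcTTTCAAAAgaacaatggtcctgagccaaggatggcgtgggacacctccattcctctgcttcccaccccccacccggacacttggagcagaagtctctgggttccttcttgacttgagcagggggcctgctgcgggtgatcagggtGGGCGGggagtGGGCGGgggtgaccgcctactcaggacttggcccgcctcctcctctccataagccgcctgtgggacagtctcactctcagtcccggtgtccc
Ptgs1: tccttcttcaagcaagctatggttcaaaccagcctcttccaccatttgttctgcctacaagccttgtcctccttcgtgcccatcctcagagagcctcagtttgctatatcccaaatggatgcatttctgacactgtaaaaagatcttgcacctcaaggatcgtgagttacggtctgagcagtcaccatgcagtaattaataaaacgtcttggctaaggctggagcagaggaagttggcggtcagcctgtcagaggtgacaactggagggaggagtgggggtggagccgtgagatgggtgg

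These windows lie at chr1:150099781-150100080 on the plus strand for Ptgs2, chr2:30903248-30903547 on the minus strand for Ptges and chr2:36230176-36230475 on the plus strand for Ptgs1. The Ptges window lies inside the gene span given above, which is from GENCODE, so its RefSeq start is not the outermost GENCODE start. The Ptgs2 window holds a C/EBP match (TTNCNNAA) at position -69 from the start, TTGCGCAA. A CRE core (TGACG, read here as CGTCA) begins at 14 and overlaps an E box (CACGTG) that begins at 17. A further C/EBP match at -25 overlaps an NF-kB match (GGNNTTNCC) at -22, and a GC box (GGGCGG) lies at -170. The Ptges window holds a C/EBP match at -198 and GC boxes at -53 and -42. In the Ptgs1 window none of the motifs was matched, among which a full CRE (TGACGTCA), AP-1 (TGANTCA), STAT (TTCNNNGAA) and TATA box (TATAAA) were also searched. Among 32817 RefSeq windows of the same length the C/EBP letters occurred in 40.7%, the GC box in 35.6%, the CRE core in 20.8%, the NF-kB letters in 16.0% and the E box in 7.1%. The full CRE occurred in 1.8%, AP-1 in 7.8%, STAT in 8.3% and the TATA box in 13.6%, and in none of the 9 genes of the set with a window. A match is a match of letters and not a site shown to be bound.

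The other terminal synthases were not called. Ptges2, a membrane-associated prostaglandin E synthase, had 30.42, 25.66 and 29.26 normalised read counts with midkine and 18.89, 30.79 and 18.76 in control. Control replicate 2 was the highest library of all, so the groups overlapped, and the log2 fold change of 0.34 (SE 0.26) was not called. Ptges3, also known as the Hsp90 co-chaperone p23, had 1009.62, 1091.43 and 956.42 with midkine and 993.63, 978.67 and 1017.19 in control. Its log2 fold change was 0.03 (SE 0.08), and the read ratio of 1.03 had a counting interval of 0.976 to 1.08. It had 3035 reads with midkine and 3077 in control, and GENCODE lists 1 pseudogene named after it with which reads could be shared.

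Of the 2 prostaglandin E2 receptor genes Ptger2 was called higher and Ptger4 was not called. Ptger2 had 86.76, 89.81 and 85.76 normalised read counts with midkine and 36.84, 32.65 and 32.31 in control. The libraries of each group lay close together, and the groups were well apart. The means were 87.4 ± 2.11 with midkine and 33.9 ± 2.52 in control (SD, n = 3 each), with a log2 fold change of 1.34 (SE 0.17) and a range of 1.09 to 1.40 over the 19 other settings tried. Ptger2 lies on chromosome 14 from 44988195 to 45003820, and its exons overlap the predicted genes Gm17173 and Gm49364 on the other strand. Exons of Ptgs1 and Alox5ap likewise overlap the predicted genes Gm43621 and Gm19719 on the other strand. Since the strand setting of the counting is not given in the sources used here, reads of such partners cannot be told apart.

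Ptger4 had 383.12, 326.24 and 329.91 normalised read counts with midkine and 411.81, 422.63 and 385.62 in control. The highest midkine library lay just under the lowest control library. The log2 fold change of -0.23 (SE 0.10) was not called. It was called in 7 of 19 other settings, among them at -0.31 without midkine replicate 1. Exons of Ptger4 overlap those of Ttc33, a tested gene on the other strand.

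The promoter of Ptger2, the receptor gene that rose, is shown with the same marking.

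Ptger2: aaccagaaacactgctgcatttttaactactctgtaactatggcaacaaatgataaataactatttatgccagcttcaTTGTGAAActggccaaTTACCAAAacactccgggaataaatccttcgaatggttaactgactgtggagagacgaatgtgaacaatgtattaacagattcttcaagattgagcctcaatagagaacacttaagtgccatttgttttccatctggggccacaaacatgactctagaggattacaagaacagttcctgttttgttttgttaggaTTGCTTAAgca

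It lies at chr14:44987861-44988160 on the plus strand, wholly before the GENCODE start of 44988195, so positions count from the RefSeq start. Its capitals are 3 C/EBP matches, at -172, -156 and 40. Bases G and C made up 37.7% of it, against 59.3% for Ptgs2, 60.0% for Ptges, 50.7% for Ptgs1 and a median of 52.7% over all windows.

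Of the leukotriene genes Lta4h was called, Alox5ap was not, and Alox5 was read too rarely to be tested. Alox5, the 5-lipoxygenase, had 5.63, 0.92 and 2.02 normalised read counts with midkine and 9.45, 13.06 and 6.25 in control. The groups did not overlap, but midkine replicate 1 and control replicate 3 were close to each other. With 8 midkine and 30 control reads it did not reach the minimum mean and was not tested. The read ratio was 0.277, with an exact 95% interval of 0.11 to 0.619. With no minimum its log2 fold change was -1.60 and it was called lower.

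Alox5ap, the membrane protein that presents arachidonic acid to 5-lipoxygenase, had 3046.89, 2762.94 and 2926.78 normalised read counts with midkine and 3044.16, 2804.46 and 2699.31 in control. The groups overlapped, and the log2 fold change was 0.03 (SE 0.08). Lta4h, the hydrolase that makes leukotriene B4, had 309.87, 305.16 and 300.65 with midkine and 254.07, 249.10 and 230.33 in control. All midkine libraries were higher, with means of 305 ± 4.61 with midkine and 244.5 ± 12.5 in control (SD, n = 3 each) and a log2 fold change of 0.32 (SE 0.10). The Lta4h call was lost without control replicate 3, at 0.28. Lta4h lies on chromosome 10 from 93453411 to 93484875 and Alox5 on chromosome 6 from 116410077 to 116461178.

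**Figure D2:**
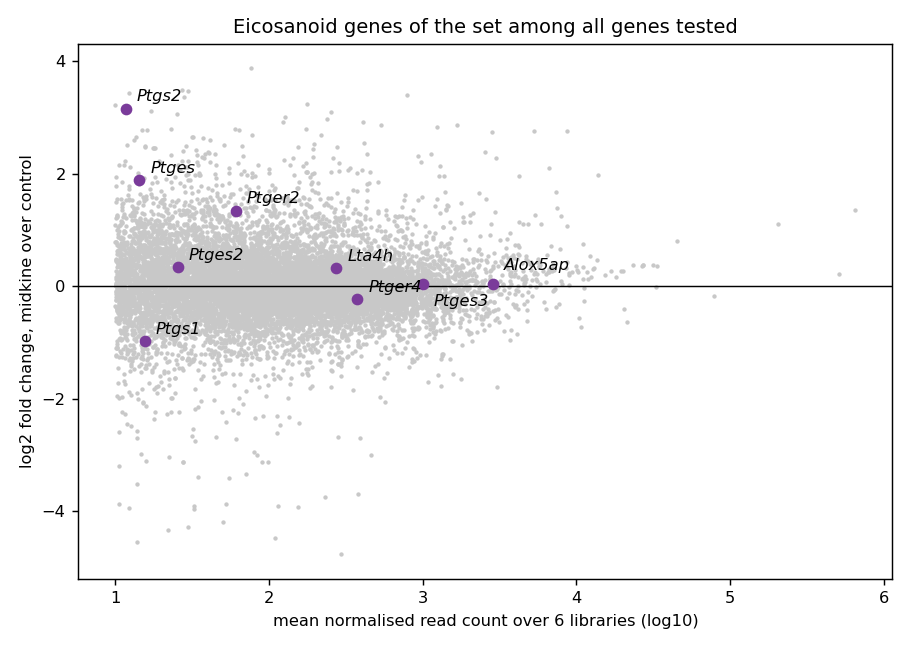
Grey points are the 11844 tested genes and violet points the 9 tested genes of the set, with the mean normalised read count over 6 libraries (log10) on the x axis and the log2 fold change of midkine over control on the y axis. Ptgs2 at 3.16 lies near the upper edge at low counts, while Alox5ap and Ptges3 lie near 0 at high counts.

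Another scale between libraries changed the sign of 2 small values. With each library scaled to its total reads the median of all genes moved to -0.265, and Ptges3 and Alox5ap were called lower at -0.23 each, or 0.04 above that median. Under this scaling Ptger4 was called lower at -0.49 (-0.23 relative to the median) and Lta4h was at 0.06, no longer called (0.33 relative to it). Ptgs2 (2.95), Ptges (1.65) and Ptger2 (1.09) were still called higher and Ptgs1 (-1.22) lower.

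**Figure D3:**
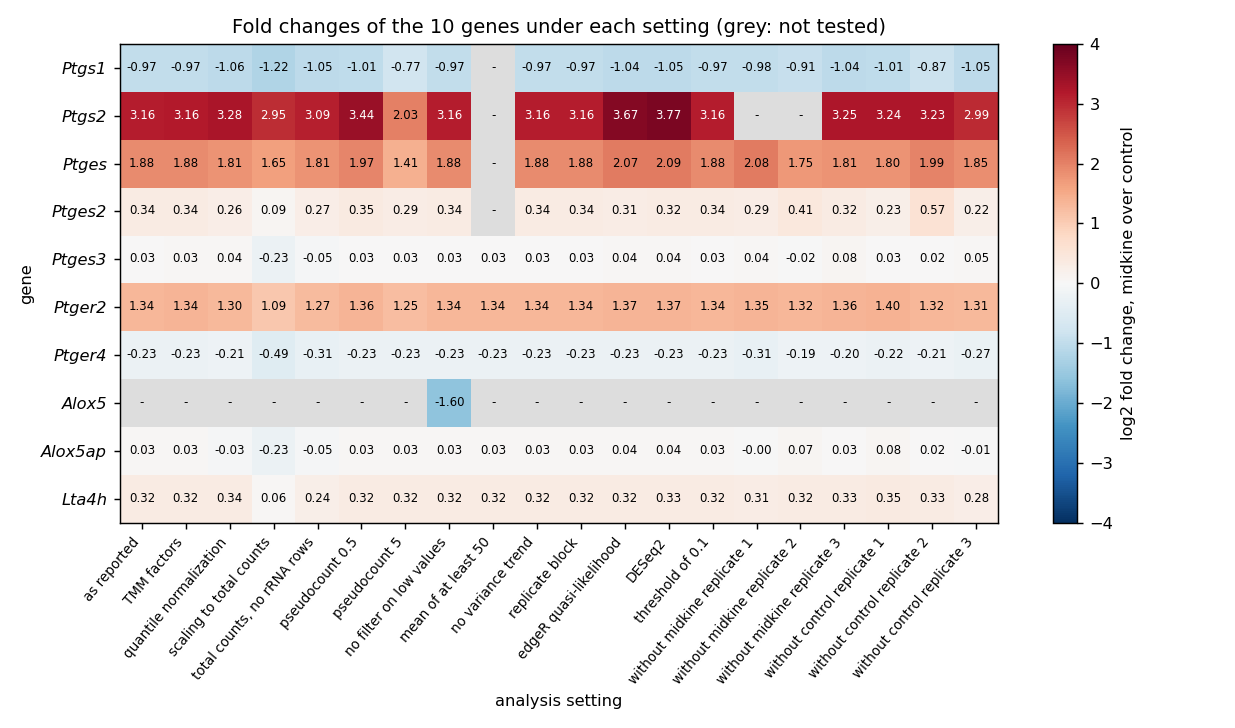
Each row is 1 of the 10 genes and each column an analysis setting, with the log2 fold change of midkine over control as number and colour, red for higher and blue for lower. Ptgs2, Ptges and Ptger2 are positive and Ptgs1 negative in every setting in which they could be tested, and Ptges3 and Alox5ap reach -0.23 with scaling to total counts.

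Markers of other cells that make or receive these lipids also differed between the groups. The neutrophil list was lower: 3 of 5 tested markers fell and Mmp8 rose, and the 11 markers summed to 95.8 to 116 normalised read counts with midkine and 557 to 686 in control, with Ly6g and Elane at 0 in every midkine library and at 1 and 5 reads over the control libraries. Of the mast cell and basophil list 7 of 10 markers were in the table and 1 was tested, Il1rl1, which fell. The list summed to 17.4 to 24.8 with midkine and 62.5 to 83.0 in control, while Mcpt8 averaged 5.12 with midkine and 5.21 in control and Hdc 3.69 with midkine and 4.15 in control. Cpa3, Ms4a2 and Prss34 were at 0 in every midkine library, and had 1, 2 and 6 reads over the control libraries. The eosinophil list, 4 of 6 in the table, summed to 5.63 to 9.16 with midkine and 28.0 to 39.7 in control, and Ccr3, its 1 tested marker, fell. In that list Siglecf was higher in all midkine libraries, averaging 4.37 with midkine and 1.98 in control, and Il5ra overlapped. The platelet and megakaryocyte list, 5 of 7 in the table, summed to 257 to 264 with midkine and 364 to 518 in control. Most of each sum was Pf4, which averaged 167 with midkine and 406 in control. Of 4 tested markers 2 rose (Ppbp and Itga2b) and Pf4 fell. Stromal markers were higher in 7 of 8 cases, with Cxcl12 lower, and summed to 36240 to 39171 with midkine and 13878 to 17182 in control. The macrophage and monocyte list had 3 of 10 markers higher and 3 lower, and summed to 2983 to 3178 with midkine and 2631 to 3766 in control. Among dendritic cells the plasmacytoid list (8 of 9 lower, summing to 2003 to 2127 with midkine and 6547 to 6735 in control) and the type 1 list (7 of 7 lower, 12250 to 13949 with midkine and 22719 to 26661 in control) were lower, and of 7 type 2 markers 4 rose and 1 fell (4009 to 4586 with midkine and 3276 to 3541 in control). Beside these marker counts, 20.9% of all genes tested rose and 21.8% fell. The part of these lists, and of the mitochondrial ribosomal RNA share, in the eicosanoid values was not tested.

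The rest of the pathway was followed in a list of 66 symbols, of which Fam213b and Prxl2b name the same gene. In the table were 49, and 38 passed the minimum mean. Of these 15 rose and 10 fell (39.5% and 26.3%, against 20.9% and 21.8% of all genes), and 13 were not called. The median log2 fold change was 0.23, beside -0.0086 over all genes tested. Groups did not overlap for 18 genes on the higher and 9 on the lower side, where 25.1% and 26.2% of all tested genes did so. For 3 of the called genes, Pla2g6, Slco2a1 and Tbxa2r, only 1 group reached the minimum, so a difference was built into their passing. Among the 35 genes with both groups at the minimum 14 rose and 8 fell, beside 20.9% and 21.8% of all genes tested. The list was drawn up with earlier results of these data known, so nothing is read from its counts and median. The same holds for the counts by role that follow, which stand beside the same shares over all genes.

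Of 12 tested genes of arachidonic acid supply 5 rose and 3 fell, and the 5 encode lipases. The lipase genes Abhd6 (log2 fold change -0.64) and Daglb (0.33) were not called. Under the minimum mean were Pla2g4c, with 1 midkine and 11 control reads, and Pla2g2d, with 12 midkine and 6 control reads. Pla2g4a, the cytosolic phospholipase that frees arachidonic acid for both pathways, had 78.88, 92.56 and 85.76 normalised read counts with midkine and 46.28, 40.12 and 52.11 in control. Its log2 fold change was 0.88 (SE 0.17, limma adjusted p = 0.000151). Pla2g4a is the protein-coding neighbour of Ptgs2 on chromosome 1, with 138740 bases and 0 other protein-coding genes between them. Mgll, the lipase that turns the endocannabinoid 2-arachidonoylglycerol into arachidonic acid, had 220.85, 244.68 and 211.87 with midkine and 17.95, 38.25 and 29.18 in control. All midkine libraries were far above control, with a log2 fold change of 3.00 (SE 0.19, limma adjusted p = 3.2e-12). The phospholipase A2 genes Pla2g6 (log2 fold change 1.28), Pla2g15 (0.97), a lysosomal enzyme, and Pla2g12a (0.48) rose as well. Pla2g12a was no longer called with scaling to total counts, at 0.22.

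The 3 genes that fell act in putting arachidonic acid back into phospholipids. Acsl4, which activates it to its coenzyme A ester, had a log2 fold change of -0.41 (SE 0.09, limma adjusted p = 0.000996). Lpcat3, an acyltransferase that incorporates it, was at -0.66 (SE 0.13, limma adjusted p = 0.000273). Lpcat2, an acyltransferase that also makes platelet-activating factor, was at -0.33, and its call was lost without midkine replicate 1 (-0.30), without control replicate 1 (-0.26) and in DESeq2 (-0.32). Mboat7, an acyltransferase of the same route, was not called.

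Of 5 tested synthases of other prostanoids 4 rose and none fell, beside 20.9% and 21.8% of all genes tested. Hpgds, the haematopoietic prostaglandin D synthase, had 966.80, 986.96 and 1053.28 normalised read counts with midkine and 503.42, 673.59 and 676.39 in control (log2 fold change 0.71, SE 0.10, limma adjusted p = 1.6e-06). The groups were separate, with control replicate 1 the lowest of all. Cbr1, a carbonyl reductase that can act on prostaglandin E2, rose by 0.90, and Fam213b, a prostaglandin F synthase, by 0.82. Tbxas1, the thromboxane synthase, rose by 0.34 and was at 0.08, not called, with scaling to total counts.

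Of 6 tested genes listed under prostaglandin breakdown and transport 2 rose, Ptgr1 and Ptgfrn, and 3 fell. Hpgd, the dehydrogenase that inactivates prostaglandins, had 65.35, 49.49 and 54.48 normalised read counts with midkine and 178.51, 153.94 and 182.39 in control. It fell by 1.59 on the log2 scale (SE 0.15, limma adjusted p = 2.3e-09), with every midkine library under every control library. Ptgr1, a reductase further down the same route, rose by 0.67. Its call was lost without control replicate 1 (0.36), with scaling to total counts (0.42) and with no variance trend (0.67). Slco2a1, the prostaglandin uptake transporter, fell by 1.04 from 24 midkine and 52 control reads, and leaving out midkine replicate 1 (-0.85), midkine replicate 2 (-0.93), control replicate 2 (-1.08) or control replicate 3 (-0.93), or using DESeq2 (-1.06), ended the call. Abcc4, a pump that exports prostaglandins, had a log2 fold change of -0.57 with overlapping groups, 119.44, 87.97 and 93.83 with midkine against 184.18, 153.94 and 114.64 in control. It was not called without the variance trend (-0.57). Ptgfrn, which is not an enzyme or transporter but an inhibitor of prostaglandin F receptor binding, rose by 0.98 (SE 0.18, limma adjusted p = 6.8e-05).

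Of the 3 other prostanoid receptor genes tested, 1 rose and 1 fell. Ptgir, the prostacyclin receptor, had 31.55, 60.48 and 53.47 normalised read counts with midkine and 13.22, 12.13 and 8.34 in control. Midkine libraries were all higher, with a log2 fold change of 1.99 (SE 0.29, limma adjusted p = 3.3e-06). Tbxa2r, the thromboxane receptor, which reached the minimum only through its control libraries so that a difference was built into its being tested, had 2.25, 0.00 and 3.03 with midkine and 22.67, 30.79 and 25.01 in control. Midkine replicate 2 had no read of it, and the others 2 and 3, against 81 control reads in all. The log2 fold change was -3.51 (SE 0.50), and the read ratio of 0.0642 had an exact 95% interval of 0.0203 to 0.156. Ptger3, a further prostaglandin E2 receptor, had means of 73.5 with midkine and 68.5 in control and was not called.

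**Figure D4:**
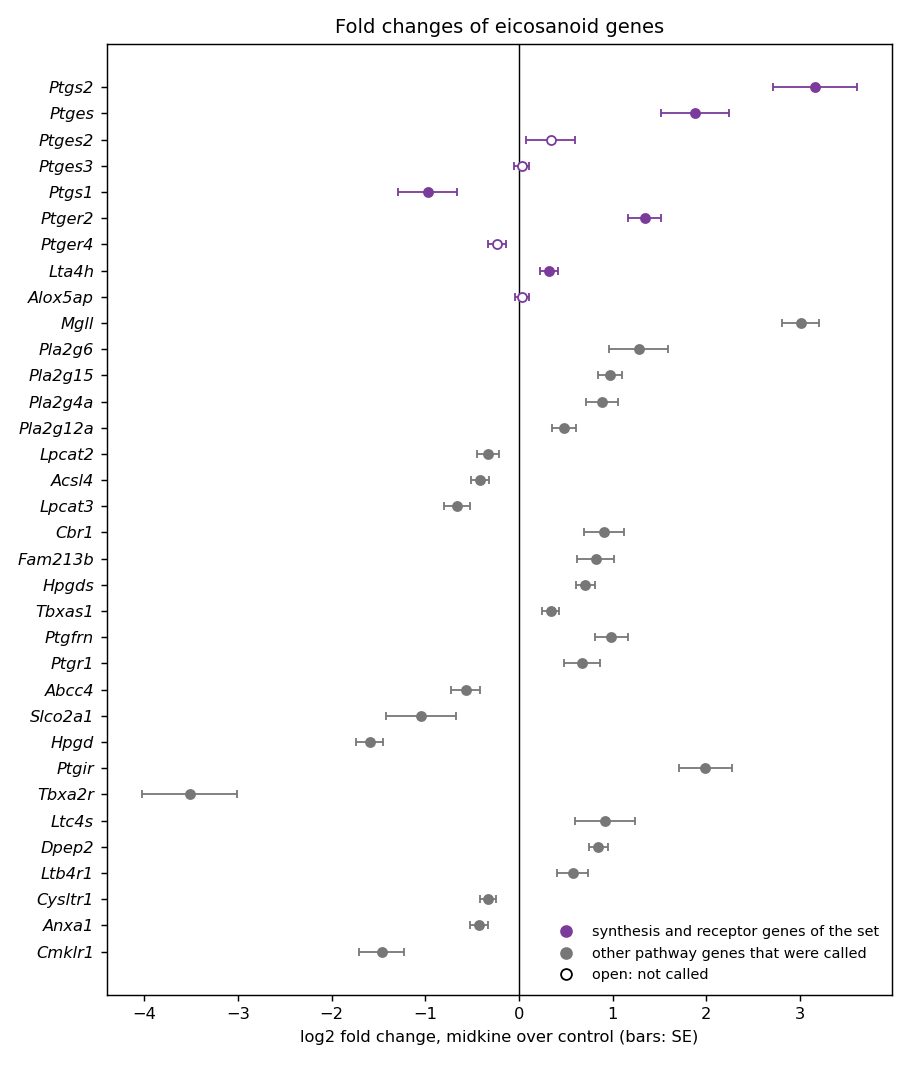
Points are log2 fold changes of midkine over control with SE bars, for the 9 tested genes of the set in violet (open where not called) and the 25 called genes of the wider list in grey, in order of role. Ptgs2 at 3.16 and Mgll at 3.00 lie farthest to the right, Tbxa2r at -3.51 farthest to the left. Ptgs2, Ptges, Pla2g6, Slco2a1 and Tbxa2r reached the minimum mean only through the group in which they were higher.

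Of 6 other tested genes of leukotriene synthesis and metabolism 2 rose and none fell. Ltc4s, the synthase of leukotriene C4, had 24.79, 19.24 and 23.20 normalised read counts with midkine and 7.56, 13.06 and 14.59 in control (log2 fold change 0.92, SE 0.32, limma adjusted p = 0.0228). The groups were separate but the reads few, 66 with midkine and 36 in control. The call was lost without midkine replicate 1 (0.84), midkine replicate 3 (0.89) or control replicate 1 (0.65), in DESeq2 (0.94) and with scaling to total counts (0.67). Dpep2, a dipeptidase that converts leukotriene D4 to leukotriene E4, rose by 0.85 (SE 0.10, limma adjusted p = 1.6e-07). Its exons overlap Dus2 on the other strand, and Dpep2nb and Gm22972, neither among the genes tested, on its own strand. Cotl1, a protein that binds 5-lipoxygenase, and Abcc1, the exporter of leukotriene C4, were not called.

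Of the 2 leukotriene receptors tested, 1 rose and 1 fell. Ltb4r1, the high-affinity leukotriene B4 receptor, had 75.50, 84.31 and 83.74 normalised read counts with midkine and 49.11, 59.71 and 54.19 in control. It rose by 0.57 (SE 0.16, limma adjusted p = 0.00619), and with scaling to total counts it was at 0.32 and not called. Cysltr1, the receptor for leukotriene D4, had 644.53, 586.49 and 559.93 with midkine and 732.94, 737.03 and 783.74 in control. It fell by 0.33 on the log2 scale (SE 0.08, limma adjusted p = 0.0024). Cysltr2 was under the minimum mean.

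Of the genes listed under other lipoxygenases, epoxide hydrolases and resolving receptors, 4 were tested. Of these 2 fell, Cmklr1 and Anxa1, and none rose. Cmklr1, a receptor for chemerin and resolvin E1, had 30.42, 14.66 and 32.28 normalised read counts with midkine and 62.34, 78.37 and 67.74 in control (log2 fold change -1.47, SE 0.24, limma adjusted p = 2.3e-05). All midkine libraries were lower, with midkine replicate 2 the lowest. Anxa1, which is not of these classes but is known as an inhibitor of phospholipase A2 activity, fell by 0.43 (SE 0.10, limma adjusted p = 0.000766). The lipoxygenase genes Alox12, Alox15 and Alox8 were under the minimum mean, with 18 midkine and 3 control reads for Alox12.

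**Figure D5:**
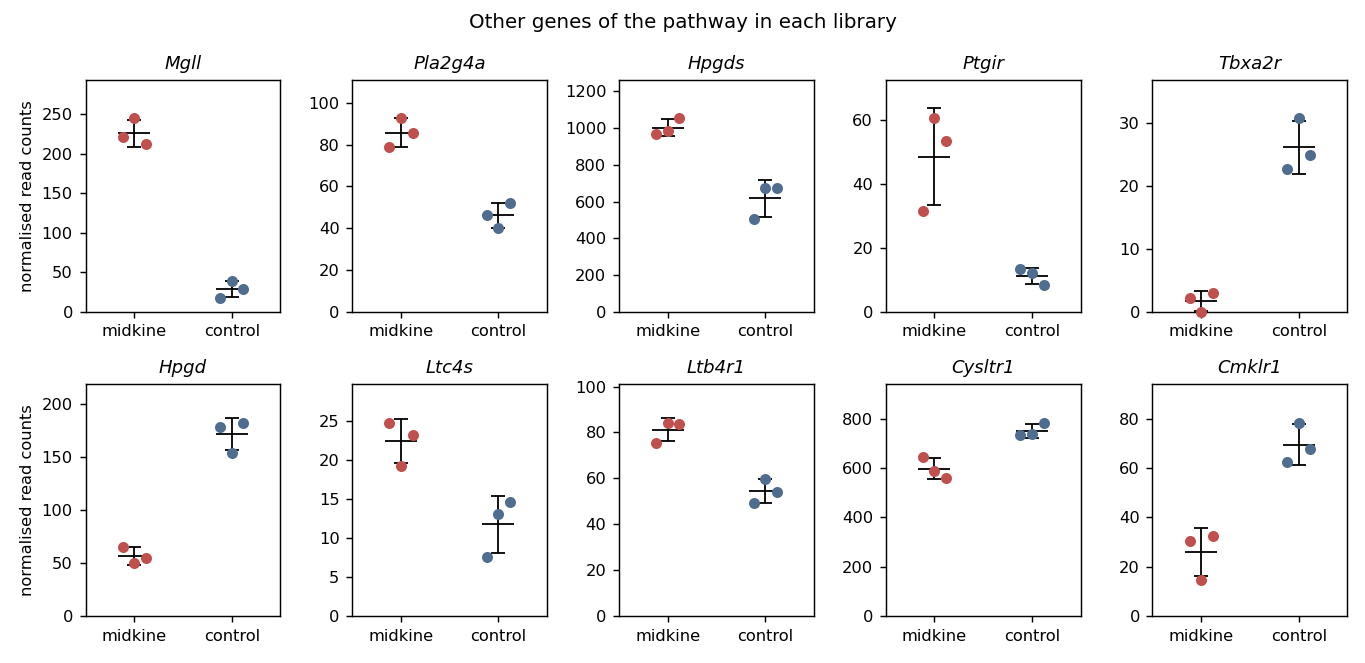
Each panel plots 1 of 10 called genes of the wider pathway list, with normalised read counts on a linear axis from 0, 3 midkine libraries in red on the left, 3 control libraries in blue on the right, and the mean and SD in black. Mgll, Pla2g4a, Hpgds, Ptgir, Ltc4s and Ltb4r1 lie higher with midkine and Tbxa2r, Hpgd, Cysltr1 and Cmklr1 lower, with no overlap between groups in any panel. The panels are a choice among the called genes, so nothing is read from this. Abcc4, a called gene whose groups overlap, is not shown. Tbxa2r reached the minimum mean only through its control libraries.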

How the data were processed

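RNA from 6 samples was made into QuantSeq 3' end libraries from about 500 ng of total RNA, per the labels' protocols. HTSeq, DESeq2, TopHat2 2.0.10, SAMtools 0.1.19, Bowtie 1.0.0 and FastQC 0.11.0 appear in the submitters' processing notes, as do the builds mm10 and GRCm38. The strand setting and gene models were not given in the sources used here. What the authors deposited is a signal table in which each library's read counts are divided by its own size factor. All values (100%) were whole multiples of the value of 1 read within 1e-06 reads, so whole reads were recovered. The deposited counts carry no named molecular identifiers, so intervals cover counting error only. Replicates differed by more than counting noise (chi-square divided by its degrees of freedom, 2.31 to 10.6).

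Genes with a mean of at least 10 were tested with limma 3.58.1 (variance trend, R 4.3.3) on log2(value + 1), midkine over control, with Benjamini-Hochberg adjustment over all genes tested and a threshold of 0.05. This scale understates changes of low genes. edgeR 4.0.16 and DESeq2 1.42.0 on recovered reads were among the 19 alternatives. The test was checked on simulated data. The genes, lists and rules were chosen with earlier results of these data known. The naming rule took all 10 genes of the set and every called gene of the pathway list up to 25. It also took up to 4 called genes of each list of Ptgs2 regulators, by smallest p. Genes outside this rule, named as uncalled, rare, contrary to a list or to complete its called genes, were picked with their values in view. Markers of 10 cell types were listed by name. Positions are from GENCODE M21 (GRCm38), which held 99.6% of the symbols. Of the 43 genes named by the rule, 4 had exons over a tested gene on the other strand. Promoters are from RefSeq (GRCm38.p6), matched by symbol for 9 of 10 genes, all but Alox5ap. Motifs were searched on both strands. Figures used Python 3.11.15 with matplotlib 3.10.9.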

Additional observations from a re-analysis of the deposited data

How the results depend on the processing

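The set had 4 genes called higher and 1 lower. A minimum mean of 50 left 5 of the genes to test and 2 called higher. Genes called lower were 4 with scaling to total counts, 2 with scaling to total counts without ribosomal RNA rows, 2 with a pseudocount of 5, 2 with no minimum mean, 2 with the replicate block, 2 at a threshold of 0.1, 0 in DESeq2 against 1 in edgeR, and 0 to 2 on leaving out each library, with 0 without control replicate 2. Ptges3 and Alox5ap turned to -0.23 each and were called lower with scaling to total counts. Of all genes, 1276 were called higher and 4823 lower with that scaling (20.9% of calls higher, against 49.0%), beside 2481 and 2578. Wider pathway calls kept within 1.5 times, and 17 of 25 named genes of that list were called in every alternative in which they were tested (12 in all 19, and 5 in the 18 other than a minimum mean of 50). Same-numbered libraries did not deviate together (correlations -0.01, 0.029 and -0.058), so the numbers were not treated as pairs. The causes of these changes were not tested. Depth limits Ptgs2, Ptges, Ptgs1, Alox5, Tbxa2r, Slco2a1 and Ltc4s, whose reads are given beside their values. It also limits Pla2g6, with 75 midkine and 31 control reads.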

Other observations

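Transcription factors known to act on the Ptgs2 gene were read from a list of 11. Of these 5 rose and 3 fell, where 20.9% of all tested genes rose and 21.8% fell. Cebpb, a factor of the C/EBP family, had 221.98, 241.93 and 238.10 normalised read counts with midkine and 57.62, 62.51 and 56.28 in control (log2 fold change 1.97, SE 0.13, limma adjusted p = 3.9e-12). Cebpd (0.53) and the immediate early factors Fos (0.77), Jun (0.95) and Egr1 (1.32) were also called higher. Rela, an NF-kB subunit, was not called, and Nfkb1 (-0.63), Klf4 (-0.54) and Creb1 (-0.24) fell. The exons of Cebpb overlap Tmem189 on the other strand.

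Of 6 RNA-binding proteins known to act on Ptgs2 mRNA 4 fell and 1 rose, beside the same shares over all genes. Zfp36, which promotes decay of such messages, had 1356.68, 1306.78 and 1443.71 normalised read counts with midkine and 747.11, 743.56 and 722.25 in control (log2 fold change 0.89, SE 0.08, limma adjusted p = 8.7e-10). Celf2 fell by 0.82, Khsrp by 0.57, Hnrnpd by 0.48 and Elavl1 by 0.48. Whether these genes bear on the level of Ptgs2 was not tested.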
